A study of Arabidopsis thaliana with 6 samples.

Results

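A set of 10 genes of the drought and desiccation response to abscisic acid (ABA) was followed in Arabidopsis thaliana seedlings with and without extra sORF2146, a coding gene that the series title calls mitochondrial in origin and links to flowering. The genes were taken by locus identifier, with earlier results of these data known: NCED3 (AT3G14440), RD20 (AT2G33380), RD22 (AT5G25610), RD29A (AT5G52310), RD29B (AT5G52300), RAB18 (AT5G66400), GOLS1 (AT2G47180), GOLS2 (AT1G56600), EM1 (AT3G51810) and EM6 (AT2G40170). These are 10 of 35475 gene identifiers on the array, and each was represented by 1 probe. Total RNA came from seedlings aged 14 days, grown on solid medium in long days (14 hours light, 10 hours dark), and was hybridised to one-colour Agilent arrays. One group of 3 arrays held seedlings of the sORF2146ox transgenic genotype and the other 3 held seedlings transformed with the empty pMDC32 vector, so both groups carry a transgene. The labels name neither the promoter that drives sORF2146, the number of independent lines, nor whether plants were pooled, and no drought or ABA treatment is named for either group. In whole seedlings, fewer cells of a type and less RNA per cell cannot be told apart.

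ABA is the hormone that plants accumulate when water is short and when seeds dry. It is made from carotenoids, and NCED3 cleaves the carotenoid precursor in the step that limits synthesis under drought, so this gene acts ahead of the hormone and the other genes are targets or protective products. Bound ABA receptors (PYR and PYL proteins) block clade A protein phosphatases, which frees SnRK2 kinases to activate bZIP factors of the ABF and ABI5 group. These factors bind ABA-responsive elements in promoters of genes such as RD29B and RAB18, while DREB factors bind the dehydration-responsive element of RD29A. The products include the caleosin RD20, the BURP-domain protein RD22, the dehydrin RAB18, galactinol synthases that start the raffinose pathway, and the EM proteins of dry seeds.

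RD20, which encodes a calcium-binding caleosin with peroxygenase activity, fell in the overexpressor and was the 1 gene of the 10 that passed the test. The other genes with differences of -1 or lower on the log2 scale were EM1, GOLS2 and NCED3, and none of these 3 passed. RD22, RD29A, RAB18 and EM6 had differences between -0.56 and -0.42, GOLS1 differed by 0.33, and none of these passed either. RD29B was above background on 1 array of 6 and was not tested. Values are processed signals in linear units, or scaled log2 signals, which are the log2 processed signal minus the 75th percentile of its array. A gene was tested if 1 group or both had its probe well above background in every replicate, and it passed if its adjusted p, from limma with Benjamini-Hochberg adjustment over all 23394 genes tested, was below 0.05.

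Of the 9 genes tested, 1 fell and 0 rose, where 5.17% of all genes tested were called, 2.65% as lower and 2.51% as higher in the overexpressor. The 1209 genes called over all were 588 higher and 621 lower, a split that was 779 and 488 under quantile normalization, 403 and 620 when the percentile was taken over probes detected on all arrays, and 1014 and 534 with background subtraction. At an unadjusted p under 0.05, 4 of the 9 genes and 7207 of all 23394 genes tested were counted. The groups did not overlap for 4 of the 9 (RD20, EM1, GOLS2 and GOLS1), where the background was 40.6%, so that count alone is near what any genes on these arrays show. A difference of -1 or lower was found for 4 of 9, where 4.86% of all genes had one. EM1 entered the test only through the control, where it is bright. Among the 8 genes well above background on all 6 arrays, 3 were at -1 or lower, against 3.59% of all genes detected that widely, and 3 had groups that did not overlap, against 40.3%. NCED3, counted at -1 or lower, was at -0.71 without vector control replicate 1 and at -0.95 without overexpressor replicate 2. The control SDs of NCED3 and GOLS2 were above those of 98.2% and 98.0% of tested genes, a spread that the share over all genes does not match. The median difference of those 8 was -0.50, and it was also -0.50 over all 10 genes, against 0.0389 for all genes detected on every array. Without single arrays the median of the 8 ran from -0.79, without overexpressor replicate 1, to -0.45, without vector control replicate 1. The median for all genes tested was 0.0321.

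The arrays had 23270 to 24510 probes well above background and 0 saturated spots, with a 75th percentile of the signal from 817 to 1170. The series design calls the replicates biological. The 2 groups were on 2 slides scanned separately, and a slide effect cannot be told apart from the genotype. No probe is named for sORF2146, and the overexpression itself was not checked. Root and green shoot markers were well above background on all 6 arrays. Of 12 root markers and 8 green shoot markers, 0 passed the test, where 5.17% of all genes tested were called. So few markers do not show that the tissue content was equal.

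**Figure D1:**
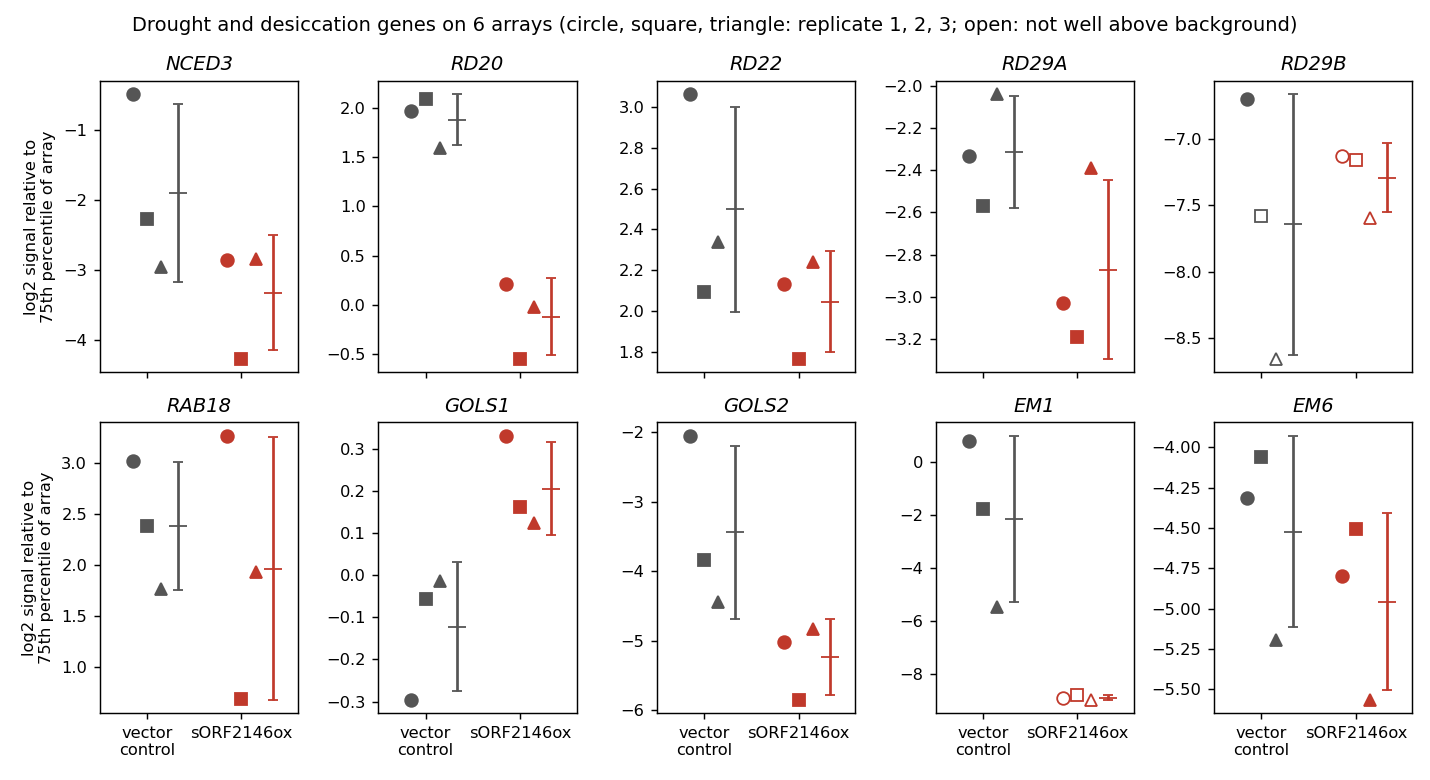
Scaled log2 signal of the 10 genes on each array (vertical axis, log2 units relative to the 75th percentile of the array; each panel has its own range), with vector control in grey and sORF2146ox in red, and with bars for mean and SD of 3 arrays beside the points. RD20 separates into 2 groups that do not overlap, EM1 and RD29B are not well above background in the overexpressor (open symbols), and vector control replicate 1 is the highest control array in NCED3, RD22, RD29B, RAB18, GOLS2 and EM1.

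NCED3 stands first in the pathway, as the enzyme of ABA synthesis that drought induces. Its processed signal was 138, 42.3 and 128 in overexpressor replicates 1, 2 and 3, and 837, 232 and 142 in the corresponding vector control arrays. Vector control replicate 1 was the brightest by far and overexpressor replicate 2 the dimmest, and the groups overlapped at their edge. The scaled log2 means were -3.32 ± 0.82 (SD, n = 3) and -1.90 ± 1.28 (SD, n = 3). The difference of -1.42 had a 95% interval from -3.21 to 0.37 and did not pass (limma adjusted p = 0.24), and without vector control replicate 1 it was -0.71.

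RD20 separated the groups most evenly. Its processed signal was 1156, 560 and 903 in the overexpressor and 4556, 4727 and 3308 in the control. All 3 overexpressor arrays were far below all 3 controls, with a gap of 1.38 on the log2 scale between the nearest arrays. The ranges within the groups were smaller than this gap, at 0.76 in the overexpressor and 0.49 in the control. The scaled log2 means were -0.12 ± 0.39 (SD, n = 3) and 1.88 ± 0.26 (SD, n = 3), a difference of -1.996 (SE 0.23, 95% interval from -2.57 to -1.42, limma adjusted p = 0.025). The control mean was 3.99-fold that of the overexpressor, as a ratio of geometric means. The size held without each array in turn, between -2.16 and -1.78, but the call did not. RD20 missed the threshold without overexpressor replicate 1, 2 or 3 (limma adjusted p = 0.071, 0.068 and 0.095) and without vector control replicate 2 (limma adjusted p = 0.084), settings in which the count over all genes also fell, from 1209 to between 35 and 51. With the replicate number as a block, the RD20 difference was again -1.996 and did not pass (limma adjusted p = 0.11), and normexp correction gave -1.71 (limma adjusted p = 0.27).

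RD22 encodes a BURP-domain protein whose drought induction in Arabidopsis runs through MYC and MYB factors. Its processed signal was 4377, 2776 and 4322 in the overexpressor and 9782, 4761 and 5547 in the control. One control array, replicate 1, was well above the rest, and after scaling vector control replicate 2 lay among the overexpressor values. The difference was -0.45 (95% interval from -1.13 to 0.23, limma adjusted p = 0.31), and it was -0.17 without vector control replicate 1.

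RD29A and RD29B are next to each other in the RefSeq gene table and encode hydrophilic proteins induced by cold, drought and salt. The RD29A signal was 122, 89.4 and 174 in the overexpressor and 232, 188 and 267 in the control. Overexpressor replicate 3 reached into the range of the controls once scaled, and the groups overlapped. The difference was -0.56 (95% interval from -1.17 to 0.0524, limma adjusted p = 0.19). RD29B was close to background throughout, with a signal of 7.15, 5.73 and 4.75 in the overexpressor and 11.3, 5.83 and 2.72 in the control. Only vector control replicate 1 was well above background, and the lowest signal with that status on any array was between 7.96 and 9.23. A change of RD29B was not measurable at these signals: without the filter on dim probes its difference was 0.35 (SE 0.50, limma adjusted p = 0.67).

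RAB18, a dehydrin and a standard reporter of ABA response, had the widest spread of the 10 genes within the overexpressor. Its signal was 9613, 1317 and 3499 in the overexpressor and 9462, 5808 and 3724 in the control. Overexpressor replicate 1 was the highest and replicate 2 the lowest of all 6 arrays after scaling, so the overexpressor spanned the whole control range. The SD among overexpressor arrays was 1.29, which was above that of 99.5% of tested genes. The difference of -0.42 had a 95% interval from -2.12 to 1.27 (limma adjusted p = 0.70), so a change of 2-fold either way lies inside it. Without overexpressor replicate 2 it was 0.22.

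The galactinol synthases, which make the galactosyl donor for raffinose, gave differences of opposite sign, and neither passed. GOLS2 had a signal of 30.8, 14.1 and 32.3 in the overexpressor and 283, 78.1 and 50.4 in the control. Every overexpressor array was below every control, but the controls spread over 2.40 on the log2 scale, with replicate 1 on top. The difference was -1.79 (95% interval from -3.40 to -0.18, limma adjusted p = 0.13), and it was -1.09 without vector control replicate 1. The signal was dim, and background subtraction and normexp, both with an added offset of 50, gave -0.68 and -0.64.

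GOLS1 was the steadiest of the 10 genes by the control SD of 0.15, with an overexpressor SD of 0.11. Its processed signal was 1254, 913 and 998 in the overexpressor and 952, 1073 and 1088 in the control. Before scaling the groups overlapped and their mean signals were 1055 and 1038. After scaling, all overexpressor arrays were above all controls by a gap of 0.14. Non-overlap with the overexpressor higher was found for 23.0% of all genes tested. The difference of 0.33 (SE 0.11, 95% interval from 0.0522 to 0.60) did not pass (limma adjusted p = 0.12). It lay between 0.24 and 0.38 in the 16 alternatives, each of which scales the arrays.

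EM1 and EM6 encode small hydrophilic proteins of the late embryogenesis abundant (LEA) class that accumulate in maturing seeds under the control of ABI3 and ABI5. EM1 had a signal of 2.05, 1.85 and 1.81 in the overexpressor, not well above background on any of those arrays. In the control its signal was 2036, 327 and 24.8, well above background on all 3. The control arrays thus spread over 6.27 on the log2 scale, and this SD of 3.15 was above that of 99.99% of tested genes. EM1 was at least 24.6-fold brighter in the control, taking for each overexpressor array the higher of its own signal and the lowest signal well above background. The measured means were -8.90 and -2.15, and the fitted difference did not pass (limma adjusted p = 0.059). Leaving out vector control replicate 1 lowered this bound to 8.85-fold. Leaving out vector control replicate 3 raised it to 77.7-fold, and the gene then passed (limma adjusted p = 0.018).

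EM6 was above background on all 6 arrays, unlike EM1. Its signal was 35.8, 36.0 and 19.3 in the overexpressor and 58.7, 67.0 and 30.1 in the control. Replicate 3 was the lowest of each group, and the groups overlapped. The difference was -0.44 (95% interval from -1.40 to 0.53, limma adjusted p = 0.48). Leaving out overexpressor replicate 3 gave -0.13 and replicate 2 gave -0.66, while dropping control replicate 2 gave -0.20 and control replicate 3 gave -0.77. Other seed maturation genes were counted beside the EM pair: of 16 such genes, 11 were well above background on 0 of 6 arrays, among them the cruciferins CRA1, CRB and CRC, and 2 were tested. Neither of these passed, with DOG1, a dormancy gene, at 0.63 (limma adjusted p = 0.054) and OLEO4, an oleosin, at -0.36 (limma adjusted p = 0.26). The summed scaled signal of the 16 ranged from 0.39 to 0.54 in the overexpressor and from 0.51 to 0.63 in the control, with overlapping groups, but OLEO4 and DOG1 made up 88.4% to 92.0% of it on every array. The sum of the other 14, most of them at background, ranged from 0.0387 to 0.0483 and from 0.0527 to 0.0611. The part of seed tissue in the EM1 values was not tested.

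**Figure D2:**
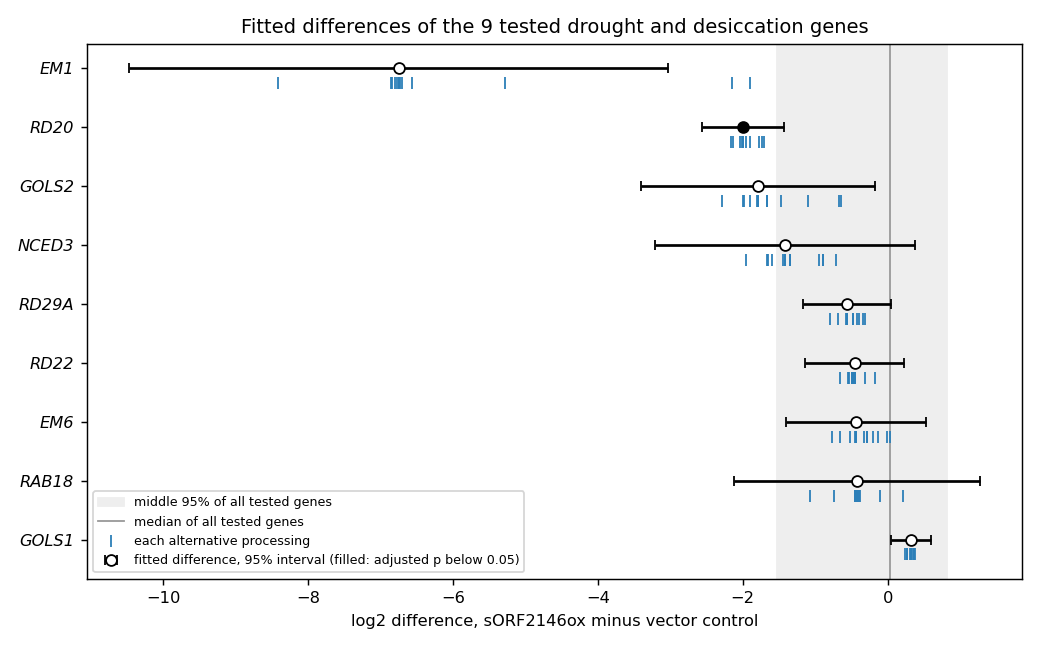
Fitted log2 differences of the 9 tested genes, overexpressor minus vector control (horizontal axis), with 95% intervals, blue ticks for each of the alternatives and the middle 95% of all tested genes in grey. Only RD20 is filled, as the gene with an adjusted p below 0.05, and the EM1 point is a fitted value against a group at background. RAB18 and EM6 have at least 1 tick above 0, while the ticks of RD20 lie between -2.16 and -1.71.

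The 9 tested genes did not vary as 1 block over the arrays. Vector control replicate 1 had a median deviation of 0.84 from the mean of the 6 arrays, against 0.35 and -0.0549 for vector control replicates 2 and 3. Overexpressor replicate 2 lay lowest, at -1.42, and overexpressor replicates 1 and 3 lay at -0.24 each, while the median deviation over all genes tested was between -0.0336 and 0.0401 on every array. Overexpressor replicate 2 was the lowest of the 6 arrays for 6 of the 9 genes, and vector control replicate 1 was the highest for 4. NCED3 and GOLS2 followed each other most closely (Pearson r = 0.98 over 6 arrays, a description, since the arrays share group and slide). NCED3 and RD22 gave r = 0.93, GOLS2 and EM1 r = 0.92, RD20 and EM1 r = 0.90, and EM1 and EM6 r = 0.63. GOLS1 ran against this set, with r = -0.92 with EM1 and -0.88 with GOLS2. Every r with EM1 rests in part on 3 overexpressor values at background. In NCED3, GOLS2, EM1 and RAB18 the controls stood in the same order, replicate 1 above replicate 2 above replicate 3, which RD20, RD22 and RD29A did not share.

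**Figure D3:**
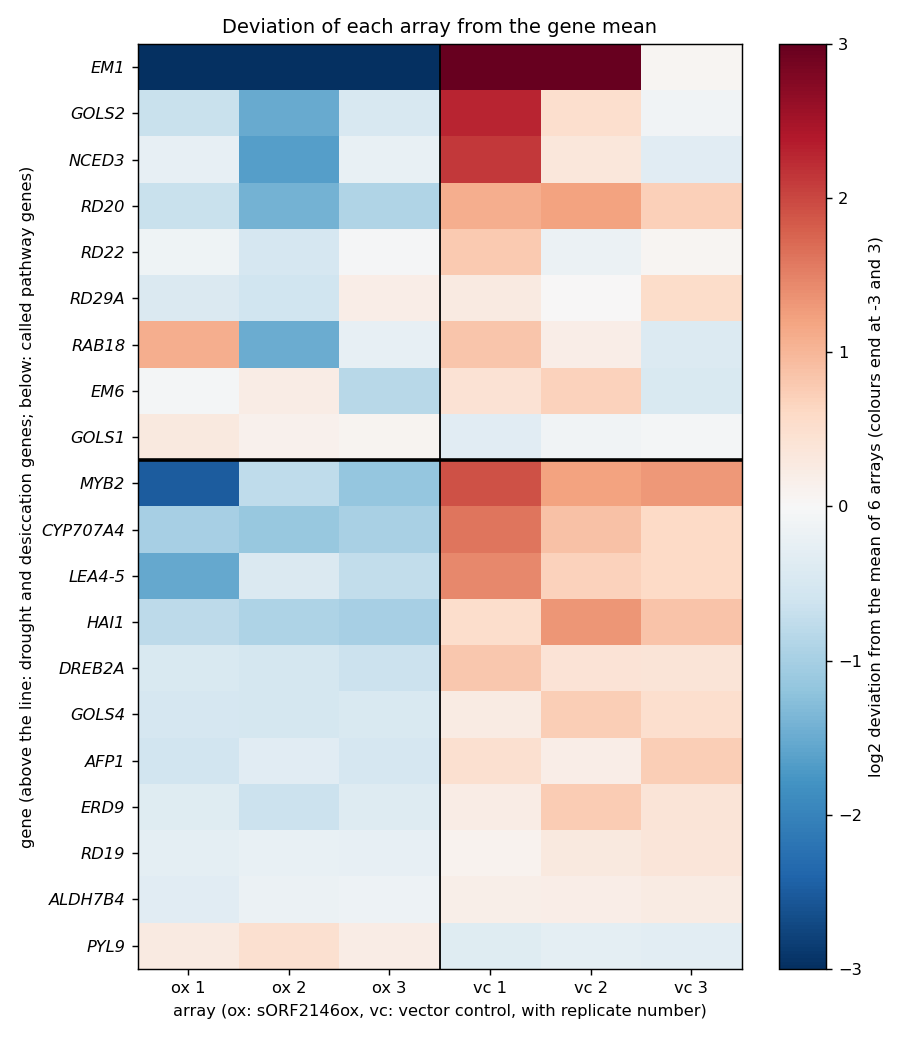
Deviation of each array from the mean of the 6 arrays (colour, log2 units, ending at -3 and 3) for the 9 tested drought and desiccation genes above the line and the 11 called genes of the ABA pathway below it. Columns are the 3 overexpressor (ox) and 3 vector control (vc) arrays; the upper block shows the strong values of vector control replicate 1 in EM1, GOLS2 and NCED3 and of overexpressor replicate 1 in RAB18, and the lower block holds genes called for their difference between groups.

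Genes most like RD20 over the 6 arrays, by Pearson correlation among 23379 other tested genes, were AT3G27290 (r = 0.998), AT1G29418, AT5G26360, AT1G26320 and AT2G31280, listed with the symbol CPUORF7. Their differences were smaller than that of RD20, from -1.01 for AT1G26320 to -0.35 for AT2G31280, and 23 genes had an r above 0.99. Those most like EM1 were SUS5, a sucrose synthase (r = 0.999), AT2G03130, AT1G32860, SRO2, of the RCD1 family, and AT5G42235. AT2G03130 and SRO2 had differences of -3.43 and -2.17, none of the 5 passed, and 60 genes had an r above 0.99. The 3 overexpressor values of EM1 are at background, so its r rests in part on them. These genes were picked for the highest r among 23379, and with 6 arrays in 2 groups the values describe these arrays only.

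The rest of the ABA pathway was read from 8 lists that hold 110 genes with a matching name, of which 93 were tested. Of these 93, 10 fell and 1 rose, or 11.8%, where 5.17% of all genes were called. Of the 10 that fell, MYB2 and LEA4-5 entered the test only through the control, where they are bright. With all 6 arrays required to be well above background, 9 of 89 were called, against 5.37% of all genes tested that way, and MYB2 and LEA4-5 were not among them. The median over the 93 was -0.18. The groups did not overlap for 40 of the 93, or 43.0%, near the background of 40.6%. The count of 11 was 0 when any 1 of the overexpressor arrays or vector control replicate 2 was left out. It was 9 and 10 without vector control replicates 1 and 3, but the genes were not all the same. Without replicate 1, BGLU18 and COR47 were among the 9, and AFP1, ALDH7B4, LEA4-5 and MYB2 were not. Without replicate 3, DREB1C, DREB2B, GOLS8 and HB7 were among the 10, and ALDH7B4, ERD9, LEA4-5, MYB2 and RD19 were not. Over all genes, 729 of 1190 and 628 of 1191 calls were shared with those on all 6 arrays.

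Among 11 tested genes of ABA synthesis and breakdown, 1 fell and the median was -0.18. The one that fell was CYP707A4, an ABA 8'-hydroxylase that inactivates the hormone, at -2.05 (SE 0.26, limma adjusted p = 0.027). Of the relatives of NCED3, NCED5 differed by -0.70 (limma adjusted p = 0.20), and NCED2, NCED6 and NCED9 were well above background on 0 of 6 arrays. The difference of NCED3 itself was larger than that of NCED5, and neither passed.

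Of 11 tested PYR and PYL receptor genes, 1 rose, 0 fell and the median was 0.25. By value 10 of the 11 were positive, where 54.0% of all genes tested were. PYL9 rose by 0.65 (SE 0.0939, limma adjusted p = 0.032). Among 10 tested kinases and phosphatases of the core pathway, 1 fell and the median was -0.37. HAI1, a clade A phosphatase that ABA induces, fell by 1.81 (SE 0.21, limma adjusted p = 0.025), which is close in size to RD20.

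Transcription factors of ABA and drought response had the lowest median of the 8 lists, at -0.75, with 2 of 18 that fell, 1 of them detected on all 6 arrays. DREB2A, an activator of RD29A under drought and heat, fell by 1.08 (SE 0.14, limma adjusted p = 0.027). MYB2, an activator of RD22 in Arabidopsis, was at least 3.21-fold lower in the overexpressor, where 0 of 3 arrays were well above background (limma adjusted p = 0.038). That test sets the control against values at background. ABF1, ABF2, ABF3 and ABF4, the bZIP activators of ABA-responsive elements, are named here for their role after their values were seen. They differed by 0.16, 0.23, 0.0435 and 0.21, and none passed. ABI5, of the same bZIP group and likewise named after its value was seen, went the other way. It was at least 1.24-fold lower in the overexpressor and did not pass (limma adjusted p = 0.16). ABI5 was well above background on 0 of 3 overexpressor and 3 of 3 control arrays, so its test also sets the control against values at background.

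The protective proteins were mixed. Of 15 tested LEA and dehydrin genes 1 fell, LEA4-5, which was at least 1.27-fold lower (limma adjusted p = 0.049), and the list median was -0.15. No overexpressor array was well above background for LEA4-5, so the list holds 0 calls among genes detected on all 6 arrays. The dehydrins related to RAB18 differed by -0.0701 for ERD10, -0.41 for ERD14, -0.25 for COR47, -0.0714 for LTI30 and -0.15 for XERO1, and none passed. The galactinol and raffinose synthase list also holds STS, DIN10, SIP1 and SIP2, and the activity of its members was not checked. Of its 8 tested genes 1 fell, GOLS4 at -0.99 (SE 0.13, limma adjusted p = 0.030), and the list median was -0.45. GOLS3, the cold-induced galactinol synthase, differed by -0.61 and GOLS8 by -0.75, and neither passed. GOLS7 was well above background on 2 of 3 overexpressor arrays and 0 of 3 controls, and was therefore not tested. Its scaled log2 signal was -6.53, -3.85 and -7.08 in overexpressor replicates 1, 2 and 3, so replicate 2 stood far above the others. In the control, at background, it was -9.05, -9.22 and -7.53. GOLS6 was well above background on 2 arrays of each group. GOLS5, GOLS9 and GOLS10 were well above background on 0 of 6 arrays.

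RD20 stood apart from its tested relatives in size, though the difference between genes was not tested. Few relatives were compared, since only 3 of the 8 listed caleosin and BURP genes had a matching name. The others were left out for their names, whatever their signal. The caleosins CLO4 and CLO1 differed by -0.32 (limma adjusted p = 0.10) and -0.10 (limma adjusted p = 0.41). USPL1, a BURP-domain relative of RD22, differed by -0.0445 (limma adjusted p = 0.90). Of 17 other dehydration-responsive genes 4 fell, with a list median of -0.20. These were AFP1, a negative regulator that binds ABI5, at -0.94, ERD9, a glutathione transferase, at -0.92, RD19, a cysteine protease, at -0.50, and ALDH7B4, an aldehyde dehydrogenase, at -0.43 (limma adjusted p = 0.040, 0.044, 0.044 and 0.049).

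**Figure D4:**
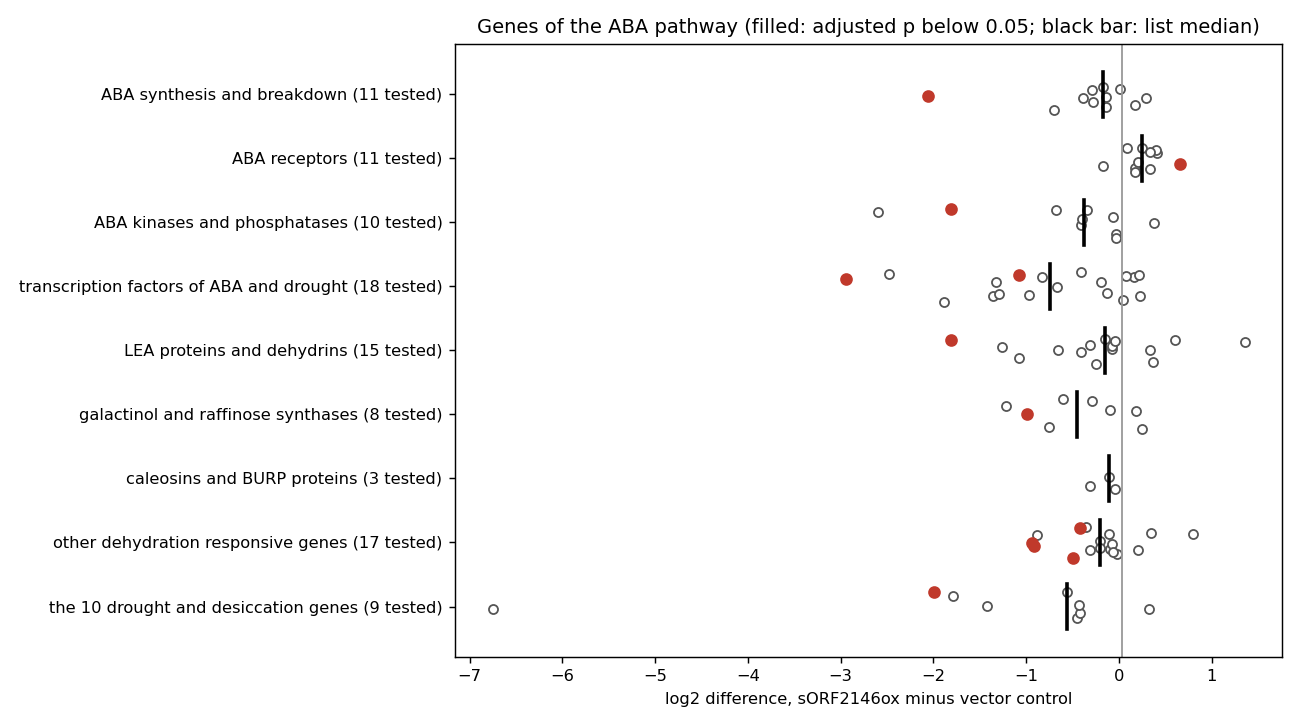
Log2 differences, overexpressor minus vector control (horizontal axis), for each tested gene of the 8 lists and of the drought and desiccation genes, with red points for an adjusted p below 0.05, black bars for list medians and a grey line at the median of all genes. Of the 11 receptors 10 lie to the right of the grey line, and the transcription factor list, with a median of -0.75, has the bar farthest to its left among the 8.

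Guard cells, which respond to ABA by closing the stomatal pore, were read through 5 markers beside RD20. Of these 5, 2 fell and 0 rose, where 2.65% of all genes tested were called lower. FAMA, a regulator of guard cell fate, fell by 0.61 and HT1, a kinase of the carbon dioxide response, by 0.47 (limma adjusted p = 0.032 and 0.042). The summed scaled signal of the 5 was 4.13 to 4.45 in the overexpressor and 5.69 to 6.91 in the control, and each of the 5 was well above background on all 6 arrays. RD20 differed by more than any of the 5, whose values ran from -0.81 to -0.0363. The part of guard cell number in the RD20 difference was not tested. Root markers had a median of 0.41. Their summed signal was 122 to 150.2 in the overexpressor and 101 to 139 in the control, with overlapping groups. The smallest adjusted p among them were those of PHT1;1 at 0.88, TIP2;3 at -1.81 and MYB36 at 0.34 (limma adjusted p = 0.076, 0.085 and 0.11). Green shoot markers had a median of -0.0655, and their summed signal was 359 to 400.4 and 394 to 417. Here the smallest were those of CA1 at -0.46, CAB1 at -0.13 and GLK2 at 0.11 (limma adjusted p = 0.068, 0.46 and 0.55).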

How the data were processed

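The authors deposited 1 scanner file per array, with spot intensity made by Agilent Feature Extraction 11.5.1.1, per the submitters' processing notes and the file headers. The processed signal is background-subtracted and spatially detrended intensity, per the file headers, with no normalization between arrays. Per the file headers, other columns flag a spot as well above background, saturated or an outlier with 0 or 1. A deposited table holds linear intensity with no method given in the sources used here, and its 6 columns shared the same value at 96.3% of ranks (relative tolerance 1e-06).

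From these, log2 processed signal was reduced by the 75th percentile of each array over 35635 probes that are not controls, outlier spots were set to missing, and a gene was its brightest probe. The comparison used limma 3.58.1 (lmFit, eBayes) under R 4.3.3. Figures used matplotlib 3.10.9. The genes and lists were chosen with earlier results of these data known. Of 167 listed genes, 6 had a symbol that the RefSeq table (TAIR10.1) does not give for their locus and were left out, and the coordinates of that table were not used. Named are the 10 genes, from each list those that passed or otherwise up to 3 with the smallest adjusted p, close relatives, and the 5 most like RD20 and EM1 by correlation (RD29B was not tested). On simulated arrays with this spread, a log2 change of 1 was recovered for 48% of genes and one of 2 for 80%, with 9 false calls among 23394 genes. Far fewer genes were changed in the simulation than the 1209 called here. The adjusted p depends on how many genes change, so these rates may not hold for the real arrays. The labels do not say that replicate numbers pair the samples, and same-numbered arrays had deviations correlated at -0.0834, -0.0015 and -0.0210. Precision is limited by the number of arrays.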

Additional observations from a re-analysis of the deposited data

How the results depend on the processing

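There were 16 alternatives to the background correction, scaling, filter, probe summary, variance model, pairing and set of arrays, and slide as a block could not be run because each slide held 1 group. The files hold median spot signals, which took the place of mean signals in normexp. Genes called, 1209, were 4 with normexp, 188 with no filter on dim probes and 14 with the replicate block, and 35 to 1191 without single arrays (51 at most without overexpressor replicates 1, 2 or 3 or vector control replicate 2). Drought and desiccation genes called, 1, were 0 with normexp and with the replicate block, 2 with trend and robust variance (RD20 and EM1), and 0 to 2 without single arrays. Pathway genes called, 11, were 0 with normexp and with the replicate block, 1 with no filter (HAI1), 9 of 89 tested when all 6 arrays had to be above background, and 0 to 10 without single arrays. RD20 passed in 10 of 16 alternatives and kept its sign in all 16. EM1 passed in 2 of the 15 that tested it, since it was left out when all 6 arrays had to be above background, and lay at -2.15 with background subtraction and -1.90 with normexp. EM6 turned to 0.0377 with normexp, and RAB18, from -1.07 to 0.22 without single arrays, to the latter without overexpressor replicate 2. The other 5 tested genes passed in none and kept their sign in all 16. The causes of these shifts were not tested. The replicate block is not a paired analysis that the labels call for, and it changed the calls of RD20 and of all 11 pathway genes. For RD29B and for EM1 in the overexpressor, the signal over background is the limit.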
